A study of Homo sapiens with 8 samples.

Results

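The TNF superfamily consists of trimeric ligands, most of them made as membrane proteins that can be shed, and of receptors with cysteine-rich extracellular repeats. Receptors that carry a death domain can start caspase-dependent cell death. The others mainly recruit TRAF adaptors and switch on NF-kappaB, and decoy receptors bind a ligand without passing on a full signal. In endothelium the family is known for inflammatory activation by TNF, for control of vessel growth by TL1A, and for setting how sensitive the cells are to TRAIL and Fas ligand. The genes described here are the protein-coding rows of the deposited table that carry a TNFSF or TNFRSF number, together with FAS, FASLG, TNF, LTA, LTB, LTBR, EDAR, EDA2R, NGFR, CD40 and CD27. They are 41 of 30386 listed genes, 15 ligand genes and 26 receptor genes.

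Messenger RNA was sequenced from endothelial cells (iEC) and from retinal endothelial cells (iREC). WTC-TJP1, a line of human induced pluripotent stem cells, was the source of both, and each group has 4 samples, lettered C to F and taken at passage 1. The labels name no added agent or genetic change that separates the groups, and no separate clones or donors. Nothing in the labels says that the samples of a group came from separate cultures, so p-values measure only the spread between these samples, which may be technical. The iEC libraries held 14877502 to 16971865 counts, and the iREC libraries held 13739364 to 15987839.

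The endothelial label was checked with 8 marker genes (PECAM1, CDH5, VWF, TEK, KDR, TIE1, ERG and CLDN5), all of them present in every sample. Their summed level was 6182 to 8150 CPM (read counts scaled to the TMM library size) in iEC and 4018 to 8959 CPM in iREC. Single markers moved in both directions. PECAM1 and CDH5 were lower in iREC (log2 fold change -1.57 and -0.76, edgeR adjusted p 0.000632 and 0.0298). TEK and CLDN5 were higher (log2 fold change 3.82 and 0.79, edgeR adjusted p 0.000110 and 0.0490). VWF, KDR, TIE1 and ERG had an edgeR adjusted p above 0.05. Sample iREC F stood apart. It had the lowest endothelial sum of all samples, while its mural and mesenchymal sum over 10 markers was 4263 CPM against 579 to 1184 CPM in the other iREC samples and 209 to 414 CPM in iEC. COL3A1 gave the largest part of that sum in F, at 1641 CPM. The markers of this list also moved in both directions. TAGLN, CNN1 and LUM were higher in iREC (edgeR adjusted p 0.000147, 0.00112 and 0.0333). RGS5 was lower (log2 fold change -1.40, edgeR adjusted p 0.0210). The epithelial sum of iREC F over 6 markers was 4924 CPM against 302 to 1117 CPM in the other iREC samples and 391 to 1174 CPM in iEC. Most of it came from the keratins KRT8 and KRT18, at 3025 and 1538 CPM. EPCAM was at most 3.28 CPM in any sample, and CDH1 was 81.6 CPM in iREC F against 0 to 5.14 CPM in the other samples. The 4 leukocyte markers PTPRC, ITGAM, CD14 and LYZ together reached at most 0.316 CPM in iEC and 1.10 to 3.08 CPM in iREC, mostly from PTPRC, which was at 0 in every iEC sample. The pluripotency sum over 5 markers was 39.0 to 91.0 CPM in iEC and 53.3 to 505 CPM in iREC, mostly LIN28A where it was high, with NANOG at or near 0 throughout. Fewer cells of a type and less RNA per cell cannot be told apart in bulk samples.

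The promoters of 4 members that the results below turn on are shown first, as the 250 bases before the RefSeq start site on GRCh38.p14, written 5′ to 3′ on the strand of the gene. RefSeq promoter sequences were matched for 27 of the 41 members. The genes TNFRSF11A, TNFRSF1B and TNFSF10 were higher in iREC and TNFRSF25 was lower. Capitals mark matches, on either strand, to the interferon-stimulated response element (GAAA, any 2 bases, GAAA) or to the TATA box TATAAA. The 4 windows are chr18:62325060-62325309 (plus strand), chr1:12166741-12166990 (plus strand), chr3:172523431-172523680 (minus strand) and chr1:6466174-6466423 (minus strand), in that order.
TNFRSF11A: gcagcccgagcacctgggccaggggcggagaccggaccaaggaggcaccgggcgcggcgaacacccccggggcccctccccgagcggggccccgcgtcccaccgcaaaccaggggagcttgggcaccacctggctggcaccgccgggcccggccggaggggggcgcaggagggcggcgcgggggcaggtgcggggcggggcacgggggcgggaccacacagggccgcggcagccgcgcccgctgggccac
TNFRSF1B: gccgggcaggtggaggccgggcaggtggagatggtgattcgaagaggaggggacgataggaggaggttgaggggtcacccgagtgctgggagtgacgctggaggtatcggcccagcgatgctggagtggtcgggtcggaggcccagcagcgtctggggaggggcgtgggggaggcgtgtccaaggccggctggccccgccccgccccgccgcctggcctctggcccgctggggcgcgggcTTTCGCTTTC
TNFSF10: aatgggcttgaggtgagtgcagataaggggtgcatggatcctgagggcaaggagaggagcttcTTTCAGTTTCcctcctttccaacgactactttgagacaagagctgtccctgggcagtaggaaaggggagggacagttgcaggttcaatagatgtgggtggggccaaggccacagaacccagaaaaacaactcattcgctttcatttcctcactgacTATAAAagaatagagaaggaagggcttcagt
TNFRSF25: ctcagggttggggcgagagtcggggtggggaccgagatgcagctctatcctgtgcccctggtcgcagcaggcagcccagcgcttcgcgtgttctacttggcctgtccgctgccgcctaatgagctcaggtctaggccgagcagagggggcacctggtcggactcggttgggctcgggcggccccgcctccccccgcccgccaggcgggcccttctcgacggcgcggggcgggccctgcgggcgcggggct
The TNFSF10 window held 1 interferon element and 1 TATA box, which do not overlap, and the TNFRSF1B window held 1 interferon element directly before the start site. No match to either motif, to the AP-1 letters TGANTCA or to the NF-kappaB consensus was found in the TNFRSF11A and TNFRSF25 windows. Over all 35116 RefSeq promoter windows of this length, 3.02% held the interferon element, 10.7% the TATA box, 6.57% the AP-1 letters and 5.21% the NF-kappaB consensus. Among the other members, FASLG, TNFSF9 and 1 of the start sites of TNFSF13B also had the interferon element (TNFSF9 was not called, and the other two had too few reads). Of the other called members with a matched promoter, TNFRSF21 and TNFSF18 had none of these motifs. TNFSF15 and a start site of FAS had the AP-1 letters, and TNFRSF14 and another start site of FAS had the NF-kappaB consensus. A match is a description of the letters only.

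Of the 41 members, 27 had enough reads to be tested, and 13 of these were called, which means an adjusted p under 0.05 in the quasi-likelihood test of edgeR. Over all 15330 genes tested, 25.0% were called. In iREC, 6 members rose (TNFRSF11A, TNFRSF1B, TNFRSF21, NGFR, TNFSF10 and TNFSF18) and 7 fell (TNFRSF11B, TNFRSF10A, TNFRSF10B, TNFRSF25, TNFSF15, FAS and TNFRSF14). The shares of all tested genes called higher and lower were 13.2% and 11.7%. The median log2 fold change over the 27 tested members was -0.30, against 0.020 over all tested genes. The groups did not overlap for 13 tested members, 6 higher and 7 lower, where 29.1% of all tested genes had groups that did not overlap. By role, 6 of 7 tested death domain receptors were called, 2 higher and 4 lower. Of 9 tested receptors without a death domain 3 were called, of 3 decoy receptors 1, and of 8 tested ligands 3. Without sample iREC F, 13 members were called, 5 higher and 8 lower; TNFSF10 was lost and TNFRSF12A was gained. The authors' deposited table lists an adjusted p under 0.05 for 15 members, against 16.3% of all its genes, and these include the 13 called here. For the members refitted singly, its log2 fold changes equal those of the DESeq2 fit used as an alternative below. The deposited values and that fit are therefore not separate results.

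**Figure D1:**
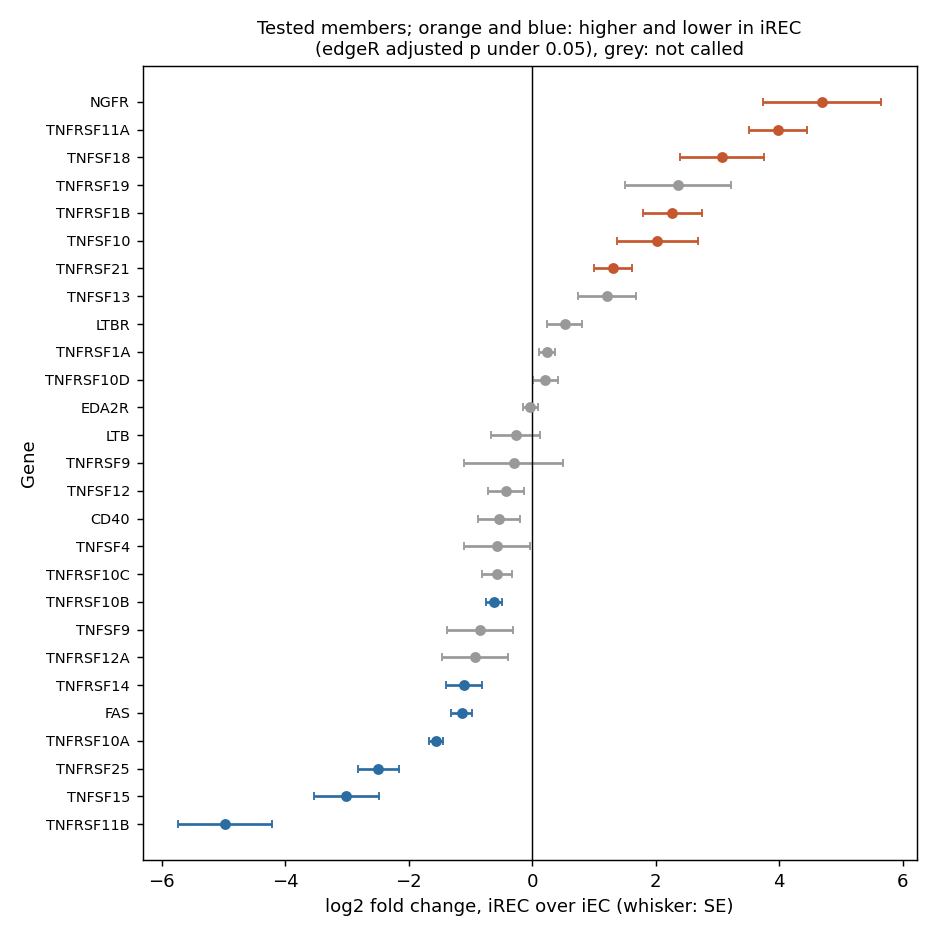
Log2 fold change of iREC over iEC for the 27 tested members, with the standard error as a whisker (edgeR, 4 samples per group). TNFRSF11B lies lowest, at -4.98, and NGFR highest, at 4.70, with TNFRSF1A and EDA2R near 0.

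The RANK and osteoprotegerin pair moved in opposite directions. TNFRSF11A encodes RANK, the signalling receptor for RANKL (TNFSF11), and TNFRSF11B encodes osteoprotegerin, a secreted decoy that binds RANKL and TRAIL. TNFRSF11A (chromosome 18, 62325287 to 62391292) had 7.997, 9.99, 3.73 and 5.44 CPM in iEC C to F, and 124, 109, 156 and 38.4 CPM in iREC C to F. Every iREC sample was above every iEC sample, and F was the lowest of the iREC samples. The gene rose from 6.79 ± 2.76 to 107 ± 49.6 CPM (SD, n = 4). TNFRSF11A had a log2 change of 3.98 ± 0.47 (SE) and an edgeR adjusted p of 0.000408.

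TNFRSF11B (chromosome 8, 118923557 to 118952200) had 46.9, 31.2, 87.1 and 54.6 CPM in iEC C to F, and 0.327, 0.714, 0.794 and 5.11 CPM in iREC C to F. The groups were far apart, and F was again the iREC sample nearest to iEC. The decoy fell from 55.0 ± 23.6 to 1.74 ± 2.26 CPM (SD, n = 4), a 31.5-fold difference (log2 fold change -4.98 ± 0.76, SE; edgeR adjusted p 0.00160). Without iREC F its log2 fold change was -6.47 (edgeR adjusted p 5.9e-05), and with limma-voom -5.64 (adjusted p 0.00112). F was also the sample with the highest mesenchymal and epithelial sums, whose part in this was not tested.

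The ligand of this pair had few reads. TNFSF11 had 8, 7, 38 and 8 counts in iEC C to F, none in iREC C, D and E and 8 in iREC F, too few for the test. On the per-length scale of the deposited FPKM, the level of TNFRSF11A divided by that of TNFRSF11B was 0.0135 to 0.101 in the iEC samples and 2.36 to 119 in the iREC samples. In iEC the decoy was the more abundant transcript in every sample, and in iREC the receptor was.

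TRAIL, encoded by TNFSF10, is bound by the death receptors TNFRSF10A and TNFRSF10B, by the decoys TNFRSF10C and TNFRSF10D, and by osteoprotegerin. The ligand was higher in iREC while both death receptors were lower. TNFSF10 (chromosome 3, 172505508 to 172523507), whose promoter with the interferon element and TATA box is shown above, had 2.47, 8.53, 0.474 and 4.80 CPM in iEC C to F, and 9.55, 18.6, 20.5 and 17.8 CPM in iREC. The lowest iREC sample, C, was just above the highest iEC sample, D. It rose from 4.07 ± 3.46 to 16.6 ± 4.83 CPM (SD, n = 4). TNFSF10 had a log2 change of 2.03 ± 0.65 (SE) and an edgeR adjusted p of 0.0489. The log2 change was 2.68 without iEC D (edgeR adjusted p 0.0207) and 2.62 with limma-voom (adjusted p 0.0198). The call rests close to the threshold. It was lost in each of 6 fits without a sample (iEC C or F, or iREC C, D, E or F). Across the 15 alternatives the smallest adjusted p was 0.00523 and the largest 0.117.

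TNFRSF10A (chromosome 8, 23190452 to 23225126) had 67.0, 69.7, 74.1 and 60.9 CPM in iEC C to F, and 23.0, 23.0, 24.4 and 21.9 CPM in iREC. The iREC samples lay close together, far below every iEC sample. It fell from 67.9 ± 5.51 to 23.1 ± 1.04 CPM (SD, n = 4). TNFRSF10A had a log2 change of -1.56 ± 0.11 (SE) and an edgeR adjusted p of 3.8e-05. TNFRSF10B (chromosome 8, 23020133 to 23069179), the most abundant member per length in iEC, had 427, 490, 524 and 592 CPM in iEC and 319, 306, 334 and 367 CPM in iREC. The groups did not overlap, but the fall was small, from 508 ± 68.8 to 331 ± 26.2 CPM (SD, n = 4), with an edgeR adjusted p of 0.00833 and a log2 change of -0.62 ± 0.13 (SE).

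The membrane decoys were not called. TNFRSF10C averaged 79.8 ± 20.3 CPM over iEC and 53.7 ± 14.7 over iREC (SD, n = 4), with a log2 change of -0.57 ± 0.24 (SE) at an edgeR adjusted p of 0.114. TNFRSF10D averaged 178 ± 54.9 CPM over iEC and 207 ± 16.9 over iREC (SD, n = 4), with a log2 change of 0.21 ± 0.20 (SE) at an edgeR adjusted p of 0.472. Their iEC and iREC samples overlapped. Summed per length, the FPKM of both death receptors divided by that of both membrane decoys was 0.963 to 1.67 in iEC and 0.708 to 1.08 in iREC, ranges that overlap. These 4 receptor genes are neighbouring paralogs on chromosome 8, so how the authors' counting shared reads between them is uncertain. TNFRSF10A also shares 224 exon bases with TNFRSF10A-AS1 and 266 with AC100861.1 on the opposite strand, at 4.20 and 1.25 CPM.

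**Figure D2:**
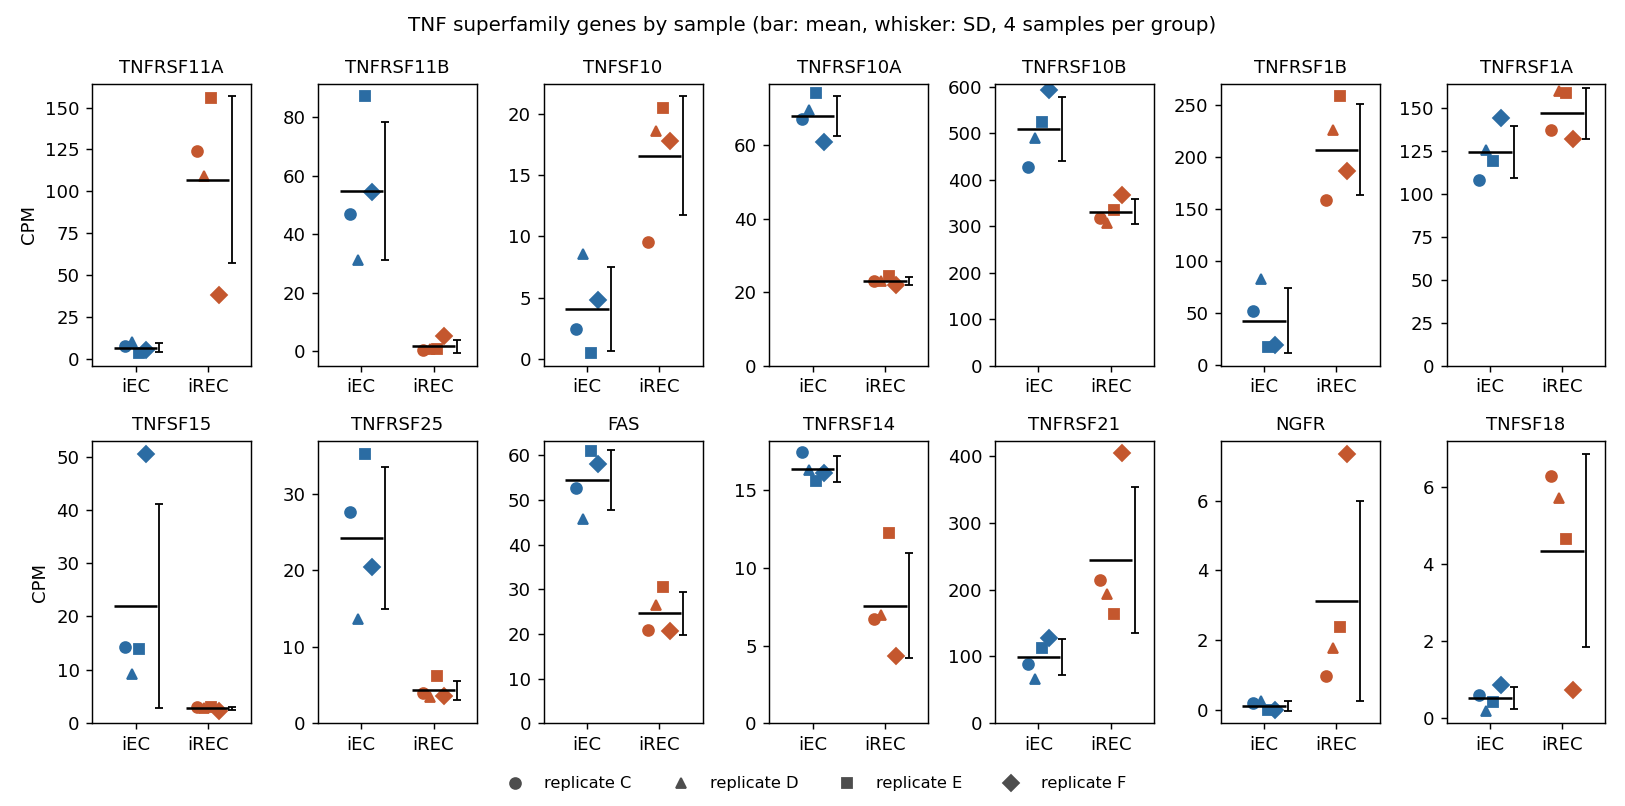
CPM of the 13 called members and TNFRSF1A in each sample, with the mean as a bar and the SD as a whisker (4 samples per group; marker shapes give the replicate letter). The groups are separate for every called member except TNFSF18, where iREC F lies at 0.720 CPM among the iEC samples.

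Of the 2 receptors for TNF, TNFRSF1B was called and TNFRSF1A was not. TNFRSF1A encodes TNFR1, the widely expressed death domain receptor, and TNFRSF1B encodes TNFR2, which has no death domain and signals through TRAF2. TNFRSF1B (chromosome 1, 12167003 to 12209228), with the interferon element at the end of the window shown above, had 52.1, 82.9, 17.2 and 19.2 CPM in iEC C to F, and 158, 226, 258 and 186 CPM in iREC. The iEC samples parted into a higher pair (C and D) and a lower pair (E and F), all of them below iREC. The leukocyte marker PTPRC was also higher in iREC, at 0 in every iEC sample and 2.75, 1.21, 0.794 and 1.77 CPM in iREC C to F. ITGAM, CD14 and LYZ were each at or under 0.253 CPM in every sample of both groups. The part of leukocytes was not tested. TNFRSF1B rose from 42.9 ± 31.1 to 207 ± 43.8 CPM (SD, n = 4). TNFRSF1B had a log2 change of 2.27 ± 0.48 (SE) and an edgeR adjusted p of 0.00832.

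TNFRSF1A (chromosome 12, 6328757 to 6342114) had 108, 126, 119 and 144 CPM in iEC C to F, and 137, 160, 159 and 132 CPM in iREC. The groups overlapped, and the difference was not called (124 ± 15.1 and 147 ± 14.6 CPM, SD, n = 4, with a log2 change of 0.24 ± 0.13, SE, and an edgeR adjusted p of 0.192). Per length, the FPKM of TNFRSF1B divided by that of TNFRSF1A was 0.142 to 0.702 in the iEC samples and 1.23 to 1.73 in the iREC samples. TNFR1 was thus the more abundant TNF receptor transcript in each iEC sample and TNFR2 in each iREC sample. Their ligands had few reads in either group. TNF had 5, 0, 2 and 2 counts in iEC C to F and 2, 15, 23 and 4 counts in iREC, and LTA, which encodes lymphotoxin alpha, had at most 6 counts in any sample.

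The TL1A ligand and its death domain receptor DR3 fell together. TNFSF15, the gene for TL1A, is known as an endothelial product that restrains vessel growth. TNFSF15 (chromosome 9, 114784635 to 114806126) had 14.2, 9.10, 14.0 and 50.5 CPM in iEC C to F, and 2.88, 2.71, 2.99 and 2.29 CPM in iREC. The iREC samples were close to each other, and iEC F was well above the other iEC samples. It fell from 21.9 ± 19.2 to 2.72 ± 0.307 CPM (SD, n = 4). TNFSF15 had a log2 change of -3.01 ± 0.53 (SE) and an edgeR adjusted p of 0.00335. Without iEC F the log2 change was -2.19 (edgeR adjusted p 0.000745).

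TNFRSF25, the DR3 gene (chromosome 1, 6460786 to 6466195; promoter shown above), had 27.6, 13.6, 35.2 and 20.5 CPM in iEC C to F, and 3.99, 3.50, 6.17 and 3.54 CPM in iREC. The groups did not overlap. It fell from 24.2 ± 9.30 to 4.30 ± 1.27 CPM (SD, n = 4), with an edgeR adjusted p of 0.000720 and a log2 change of -2.49 ± 0.33 (SE). It shares 104 exon bases with PLEKHG5, at 58.2 CPM on the same strand. PLEKHG5 was lower in iREC too (log2 fold change -2.07, edgeR adjusted p 0.00105), and how many TNFRSF25 reads come from the shared bases was not tested.

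**Figure D3:**
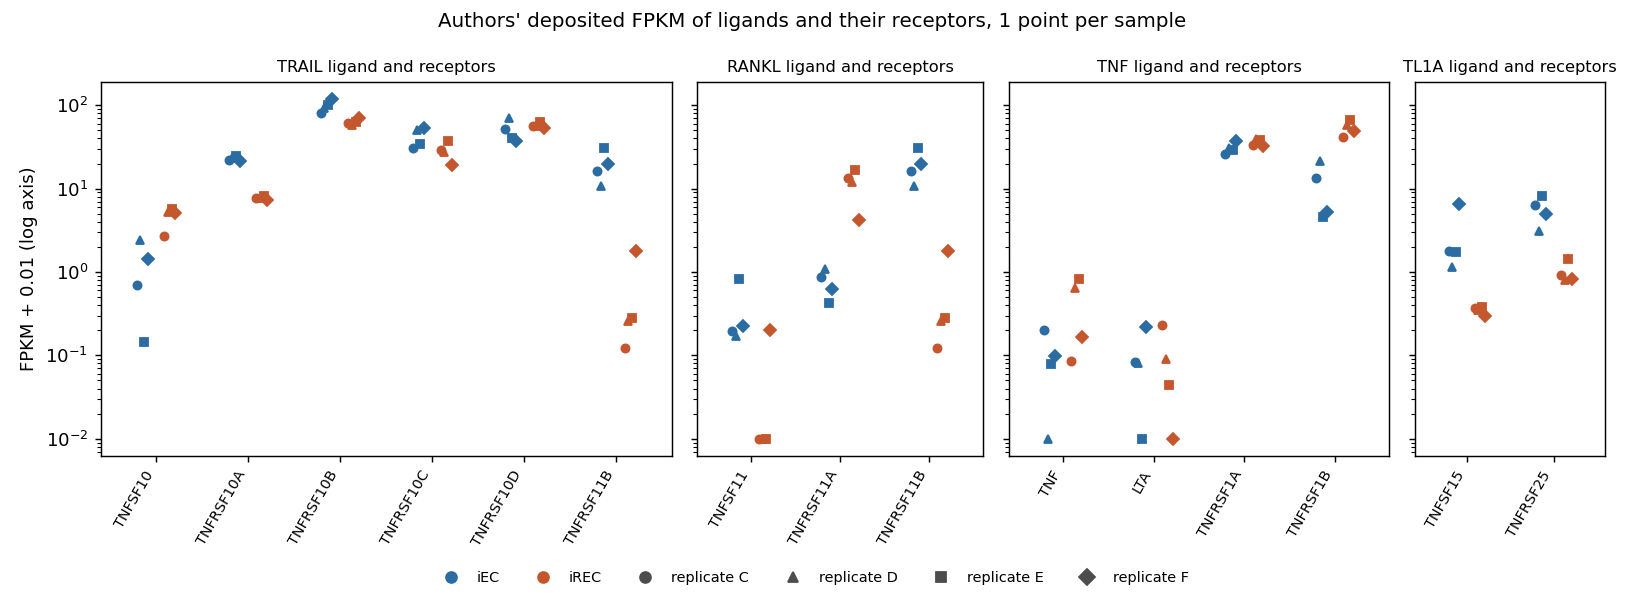
The authors' deposited FPKM, on a log axis after adding 0.01, for 4 ligands and their receptors, with 1 point per sample (blue iEC, orange iREC). TNFRSF11A and TNFRSF11B change places between the groups, as TNFRSF1B passes TNFRSF1A, while TNF, LTA and TNFSF11 lie at or below 1 FPKM in every sample.

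Of the remaining death domain receptors, FAS and TNFRSF21 moved in opposite directions. FAS (chromosome 10, 88990582 to 89015785), the receptor for Fas ligand, had 52.7, 45.8, 61.0 and 58.2 CPM in iEC C to F, and 20.9, 26.6, 30.6 and 20.6 CPM in iREC. All iREC samples were below all iEC samples, and the gene fell 2.21-fold (log2 fold change -1.14 ± 0.17, SE; edgeR adjusted p 0.00120). ACTA2, at 89.2 CPM over all samples, shares 380 exon bases with FAS on the opposite strand and reached 427 CPM in iREC F, and whether the counting used the strand is not given in the sources used here. FASLG had 3 counts in iREC E and 0 in the other samples.

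TNFRSF21 encodes DR6, a receptor with no established TNF family ligand that takes part in vessel development of the mouse brain. TNFRSF21 (chromosome 6, 47231532 to 47309905) had 89.1, 65.7, 113 and 128 CPM in iEC C to F, and 215, 193, 164 and 405 CPM in iREC. The groups were apart, with iREC F the highest. It rose from 98.8 ± 27.2 to 244 ± 109 CPM (SD, n = 4), with an edgeR adjusted p of 0.0138 and a log2 change of 1.30 ± 0.31 (SE). Without iREC F its log2 fold change was 0.95. NGFR (chromosome 17, 49495293 to 49515017), the p75 receptor for neurotrophins and a gene of neural crest and some mesenchymal cells, had 3, 4, 0 and 0 counts in iEC C to F, and 15, 25, 39 and 112 counts in iREC. Those iREC counts are 0.981 to 7.34 CPM, the highest of them in F. The call (edgeR adjusted p 0.00704) held in every alternative that tested it, but the fitted log2 fold change of 4.70 rests on few iEC reads and was 3.84 without iREC F and 5.42 without iEC D. Sample F, highest for TNFRSF21 and NGFR, also had the highest mesenchymal and epithelial sums, whose part in these values was not tested.

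Among the costimulatory members, TNFSF18 rose and TNFRSF14 fell. TNFSF18 encodes the GITR ligand, which endothelial cells can display to T cells. TNFSF18 (chromosome 1, 173039960 to 173050963) had 9, 3, 7 and 12 counts in iEC C to F, and 96, 80, 76 and 11 counts in iREC. Samples C, D and E of iREC were above all iEC samples, and F was inside the iEC range. The log2 change was 3.08 ± 0.68 (SE) at an edgeR adjusted p of 0.0101, and limma-voom did not call it (adjusted p 0.0584). Its receptor TNFRSF18 had at most 3 counts in any sample.

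TNFRSF14 encodes HVEM, the receptor for LIGHT. TNFRSF14 (chromosome 1, 2555639 to 2565382) had 17.5, 16.3, 15.6 and 16.1 CPM in iEC C to F, and 6.74, 6.99, 12.3 and 4.32 CPM in iREC. The iEC samples were nearly level and all above iREC, of which E was nearest. It fell from 16.4 ± 0.810 to 7.58 ± 3.35 CPM (SD, n = 4), with an edgeR adjusted p of 0.0214 and a log2 change of -1.11 ± 0.29 (SE). Without iEC C, iREC C or iREC D the call was lost (edgeR adjusted p 0.0529, 0.0513 and 0.0640). TNFRSF14-AS1 shares 831 exon bases with it on the opposite strand, at 1.99 CPM.

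The 14 tested members that were not called include several abundant receptors. CD40, an activating receptor of endothelium, averaged 59.7 ± 26.9 CPM over iEC and 41.2 ± 14.0 over iREC (SD, n = 4). LTBR, the lymphotoxin beta receptor, was 57.7 ± 22.7 and 83.2 ± 21.5 CPM. EDA2R, a receptor for an ectodysplasin isoform, was the member nearest to no difference, at 27.9 ± 2.43 and 27.4 ± 2.24 CPM (log2 fold change -0.028 ± 0.12, SE). TNFRSF12A encodes Fn14, the TWEAK receptor, with 14.4, 57.2, 23.3 and 93.7 CPM in iREC C to F and 49.3 to 132 CPM in iEC. Samples D and F of iREC were inside the iEC range and C and E below it, and among the alternatives run the gene was called only without iREC F. TNFRSF19 had 31.96 CPM in iREC F against 2.42 to 5.995 CPM in the other iREC samples and 0.822 to 3.65 CPM in iEC. Its log2 change was 2.37 ± 0.86 (SE) at an edgeR adjusted p of 0.0734. DESeq2 and the fit without iREC C called it. The authors' deposited table, not separate from the DESeq2 fit, gives it an adjusted p of 0.00944. TNFRSF9, the 4-1BB gene, was 3.50 ± 2.50 and 2.83 ± 3.02 CPM.

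Among the ligands not called, TNFSF4, the OX40 ligand gene, averaged 22.0 ± 13.0 CPM over iEC and 14.8 ± 5.91 over iREC (SD, n = 4), with iEC D far below the other iEC samples at 3.98 CPM. TNFSF12, the gene for TWEAK, was 10.3 ± 2.13 and 7.68 ± 2.50 CPM. TNFSF13, the gene for APRIL, had 0.215 to 0.780 CPM in iEC and 0.855 to 1.37 CPM in iREC, groups that did not overlap but gave an edgeR adjusted p of 0.0892. LTB and TNFSF9 averaged 0.990 and 0.893 CPM in iREC. TNFSF12 and TNFSF13 share 553 and 1263 exon bases with the readthrough gene TNFSF12-TNFSF13, which had at most 2 counts in a sample. How the authors' counting assigned reads from these bases is uncertain.

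The other 14 members had too few reads for the test, at most 38 counts in a sample. Of these, EDAR, FASLG, TNFRSF13B, TNFRSF18 and TNFSF12-TNFSF13 did not exceed 3 counts, taken here as the floor of detection, in any sample. CD27, TNFRSF13C, TNFRSF4, TNFRSF8, TNFSF8 and TNFSF13B, most of them known from lymphocytes, reached 6 to 17 counts in their highest sample. TNFRSF8, the CD30 gene, had 12, 12, 8 and 10 counts in iREC C to F against 1, 0, 1 and 0 in iEC. It was at least 3.24-fold higher in iREC against the floor of 1 library. It was not in the set tested here, but it was called without the filter and by DESeq2. The authors' deposited table, not separate from the DESeq2 fit, gives it an adjusted p of 0.00202.

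Per length, the order of the members by mean FPKM differed between the groups. In iEC the highest were TNFRSF10B at 98.0 ± 15.4, TNFRSF10D at 49.8 ± 14.7, TNFRSF12A at 48.2 ± 18.2, TNFRSF10C at 42.5 ± 11.3 and TNFRSF1A at 30.8 ± 4.44 FPKM (SD, n = 4). The ranges of TNFRSF10D, TNFRSF12A and TNFRSF10C overlapped. In iREC the highest were TNFRSF21 at 66.9 ± 30.5, TNFRSF10B at 63.2 ± 5.40, TNFRSF10D at 57.4 ± 4.36, TNFRSF1B at 54.0 ± 11.2 and TNFRSF1A at 36.0 ± 3.36 FPKM (SD, n = 4). Sample by sample, the ranges of the first 4 overlapped. TNFRSF21 had 58.6, 52.4, 44.6 and 112 FPKM in iREC C to F against 60.7, 58.0, 63.3 and 70.6 FPKM for TNFRSF10B, so that its mean was the highest through iREC F, and in C, D and E it was below TNFRSF10B. The ligands were far lower. The highest ligand was TNFSF4 in iEC, at 5.59 ± 3.36 FPKM, next to TNFSF12 at 5.46 ± 1.25 FPKM, and TNFSF10 in iREC, at 4.70 ± 1.36 FPKM, next to TNFSF12 at 4.01 ± 1.28 and TNFSF4 at 3.70 ± 1.46 FPKM. TNFSF10 was the highest ligand in iREC E and F, TNFSF12 in C and TNFSF4 in D.

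Beyond the members, 84 genes in 6 lists were followed, covering receptor signalling, NF-kappaB targets, apoptosis, shedding and further superfamily genes. Of these, 78 were tested and 29 called, 12 higher and 17 lower, or 37.2% against the 25.0% of all genes. Of 24 tested adaptors and receptor-proximal regulators, 8 were called, 4 higher and 4 lower, with a median log2 fold change of 0.020. TRAF5, an adaptor of several receptors without a death domain, rose from 12.02 ± 2.43 to 52.8 ± 10.8 CPM (SD, n = 4), with an edgeR adjusted p of 0.000153 and a log2 change of 2.13 ± 0.21 (SE). CASP10 and CASP8 are the initiator caspases of death receptors. CASP10 rose from 8.42 ± 2.28 to 24.9 ± 12.7 CPM, and CASP8 fell from 23.2 ± 2.37 to 10.4 ± 1.26 CPM. The necroptosis effector MLKL fell from 74.2 ± 11.1 to 32.1 ± 6.50 CPM, while TNFAIP3, the A20 brake on NF-kappaB, rose from 13.6 ± 3.92 to 32.9 ± 10.5 CPM. TNIP2, an A20 partner, fell by 0.68 on the log2 scale.

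In the NF-kappaB machinery 4 of 17 tested genes were called, 3 higher and 1 lower, which is 23.5% against 25.0% of all genes. MAP3K14, the kinase of the alternative NF-kappaB pathway, rose from 6.77 ± 2.24 to 19.5 ± 3.16 CPM (SD, n = 4), with an edgeR adjusted p of 0.00410 and a log2 change of 1.52 ± 0.28 (SE). The inhibitor NFKBIE fell from 34.6 ± 4.26 to 17.4 ± 2.09 CPM. TAB2 and TAB3, adaptors of the kinase TAK1, each rose by 0.46 on the log2 scale. TAB3 (edgeR adjusted p 0.0491) was no longer called in 7 of 8 fits that omit a sample, all but the one omitting iEC E, nor with library size only (0.0638) or no filter on low counts (0.109), and TAB2 was no longer called without iEC C (edgeR adjusted p 0.0529) or with no filter (edgeR adjusted p 0.0563). None of NFKB1, NFKB2, RELA, RELB and REL was called. RELB lay just past the threshold (log2 fold change -0.70, edgeR adjusted p 0.0510), with every iREC sample below every iEC sample.

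Of 14 tested endothelial NF-kappaB targets, 5 were called, 3 higher and 2 lower (median log2 fold change 0.84). This is 35.7% of a short list, against 25.0% of all tested genes. The neutrophil chemokine CXCL8 had 302, 256, 790 and 682 CPM in iEC C to F and 7.66, 91.2, 56.1 and 48.9 CPM in iREC, a fall of 3.31 on the log2 scale (edgeR adjusted p 0.00705). CXCL1 fell from 118 ± 36.4 to 46.9 ± 12.2 CPM, whereas its close relative CXCL2 rose from 14.3 ± 8.60 to 58.8 ± 15.3 CPM (SD, n = 4). PTGS2 rose from 3.86 ± 1.398 to 14.6 ± 8.47 CPM. The fifth called gene, SELE, had a mean below the 10 CPM set for naming and was added after its values were seen. Its log2 fold change was 3.72 (edgeR adjusted p 0.0103). VCAM1 and ICAM1 were not called.

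In the apoptosis list 8 of 16 tested genes were called, 1 higher and 7 lower, with a median log2 fold change of -0.51. That is 50% called, where over all tested genes 25.0% were called, 13.2% higher and 11.7% lower. CASP6, an executioner caspase, rose from 28.3 ± 6.40 to 67.2 ± 16.3 CPM (SD, n = 4). BID, which links death receptors to mitochondria, fell from 68.7 ± 17.7 to 34.1 ± 5.55 CPM, BBC3 (PUMA) from 24.6 ± 3.49 to 11.3 ± 3.65 CPM, and BCL2L1, an inhibitor of apoptosis, from 124 ± 43.5 to 55.7 ± 6.99 CPM. The other genes called lower were CASP9, APAF1, BAX and XIAP, an inhibitor of caspases, named outside the naming rule after their values were seen. Of 5 shedding genes 3 were called, 1 higher and 2 lower, or 60% against the same 25.0%. TIMP3, an inhibitor of the sheddase ADAM17, rose from 516 ± 163 to 2444 ± 861 CPM, a log2 change of 2.24 ± 0.31 (SE) with an edgeR adjusted p of 0.000882. RHBDF2 and RHBDF1, cofactors of ADAM17, fell from 50.02 ± 6.67 to 21.8 ± 5.67 CPM and from 70.7 ± 26.7 to 37.1 ± 8.86 CPM. RHBDF1 was no longer called in 5 of 8 fits that omit a sample (iEC E or F, or iREC D, E or F; edgeR adjusted p up to 0.0962). ADAM10 and ADAM17 were not called.

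Of the superfamily genes with other names, RELT, a receptor of the family, fell from 21.8 ± 2.72 to 7.04 ± 2.17 CPM (SD, n = 4), with an edgeR adjusted p of 0.00163 and a log2 change of -1.63 ± 0.25 (SE). EDA, the ectodysplasin gene, averaged 3.07 CPM over iEC and 2.30 over iREC and was not called. CD70 had too few reads for the test, and CD40LG was not among the listed genes.

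**Figure D4:**
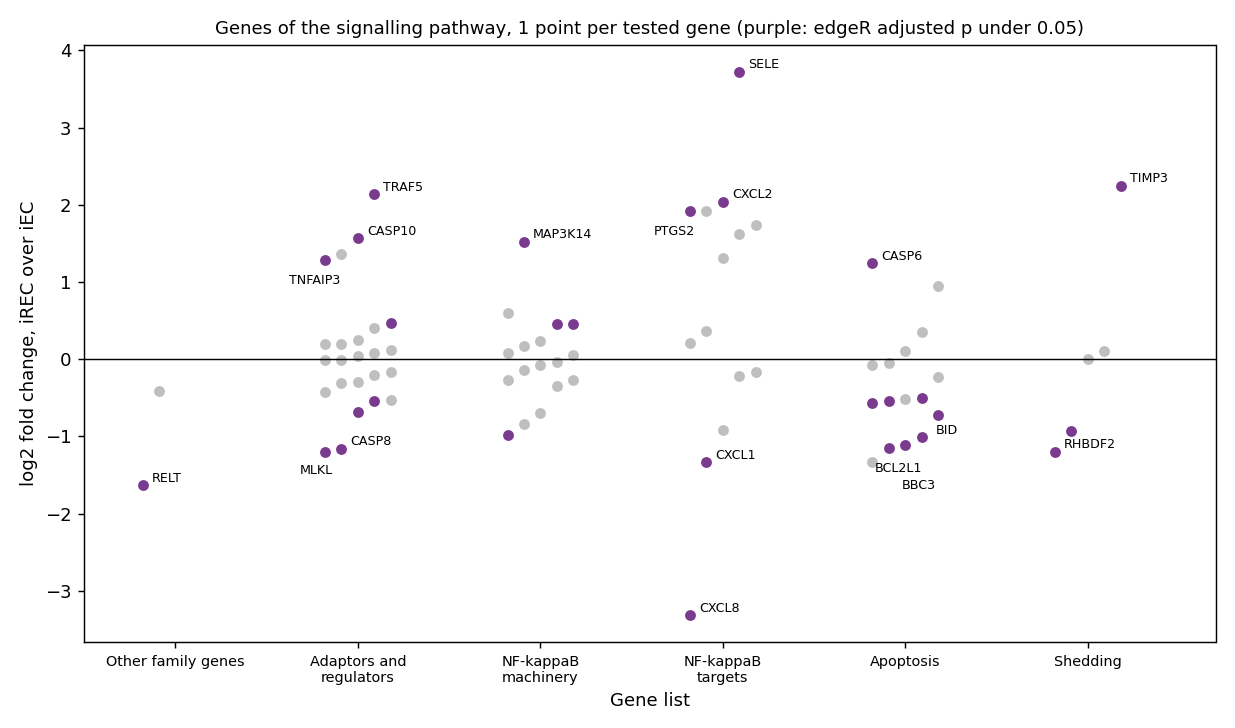
Log2 fold change of iREC over iEC for each tested gene of the 6 pathway lists, called genes in purple (edgeR adjusted p under 0.05) and named where the change exceeds 1 in size. The apoptosis genes lie mostly below 0, with CASP6 above 1, and the NF-kappaB targets run from CXCL8 at -3.31 to SELE at 3.72.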

How the data were processed

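Polyadenylated RNA was captured on beads and dUTP marked the second strand, per the labels' protocols. The submitters' processing notes name fastp, HISAT2 2.0.5 and the build hg38. The counting program and its use of strand are not given in the sources used here. Per the file headers, the authors deposited raw counts, FPKM, a normalized signal, log2 fold changes and p-values with adjusted p-values. The deposited signal equals the count divided by 1 factor per sample and was not used further. Gene identifiers and coordinates of all 30386 rows matched GENCODE release 29 (GRCh38, 1-based).

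Counts were kept by filterByExpr (15330 genes), scaled by TMM and tested with edgeR 4.0.16 (quasi-likelihood, all 8 samples, group only), with Benjamini-Hochberg adjustment over all tested genes and a threshold of 0.05. Standard errors came from the coefficient and the F statistic. A count of 3 was taken as the floor of detection, which covers counting error only. It is 0.177 to 0.218 CPM on the raw library totals. The fold bound of TNFRSF8 used the floor on the TMM library size. FPKM values are the authors'. The fit was tested on simulated counts. Alternatives used DESeq2 1.42.0, limma 3.58.1 (voom), other scalings and filters, the replicate letter as a block, and leaving out single samples.

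The members, the gene lists and the markers were chosen with earlier results of these data known, and the role classes and the promoters shown after the values were seen. Members are named in full when called, when their groups did not overlap, or when they are TNFSF10, TNFRSF1A, TNFRSF11B or FAS. From each pathway list up to 3 called genes per direction are named, those with the largest changes where 1 group averages 10 CPM or more.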

Additional observations from a re-analysis of the deposited data

Results flagged for a closer look

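For 31 groups of 4 values of the members named in full, the log2 CPM of the highest or lowest sample was compared with its neighbour by Dixon's ratio, the gap divided by the whole range, against its 95% critical value. Chance gives about 1.6 such groups, and 1 was found. TNFSF18 in iREC had a ratio of 0.854, because iREC F lay at -0.23 log2 CPM and the other iREC samples at 2.25 to 2.68. Sample F also had the highest mural and mesenchymal sum of all samples, 4263 CPM, and its part in the TNFSF18 value was not tested.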

How the results depend on the processing

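The count of called members was 13 with all samples and ran from 11 to 13 over the 8 fits that omit 1 sample. It was 13 with DESeq2 size factors and with library size only, 14 without a filter, 11 with the stricter filter (which did not test NGFR and TNFSF18), 15 with DESeq2 and 12 with limma-voom. The calls of 10 members (FAS, TNFRSF10A, TNFRSF10B, TNFRSF11A, TNFRSF11B, TNFRSF1B, TNFRSF21, TNFRSF25, TNFSF15 and NGFR) held under every alternative that tested them, and no sign changed among the genes refitted singly, which are the members chosen by the naming rule except TNFRSF8 and the named called pathway genes except SELE, CASP9, APAF1, BAX and XIAP. The count over all genes ran from 2660 to 4214 without a sample and was 4954 with DESeq2. With the replicate letter as a replicate block, 13 members, 30 pathway genes and 3334 genes in all were called, while TAB3 (edgeR adjusted p 0.106) and RHBDF1 (edgeR adjusted p 0.0727) were not. The correlations of same-letter samples' deviations from their group means were 0.168 for C, -0.079 for D, 0.029 for E and 0.250 for F, so the letters were not taken to pair the samples, and iEC D and E correlated best with another letter. Few reads limit NGFR, TNFSF18 and the 14 members below the filter.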
